A study of Mus musculus with 6 samples.

Results

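The genes described here encode the proteins of oxidative phosphorylation that the nucleus supplies to liver mitochondria, and their transcripts were compared between Atp7b knockout and wild-type mouse liver, complex by complex. They were chosen by name: every probe set with a single gene symbol beginning with Nduf, Uqcr, Cox4, Cox5, Cox6, Cox7, Cox8 or Atp5, together with Sdha, Sdhb, Sdhc, Sdhd, Cyc1 and Cycs. This gave 145 of the 11811 probe sets in the table, for 81 of the 7163 genes that had a probe set with a single symbol. The 81 genes comprised 33 named for subunits of complex I, 5 assembly factors of complex I (Ndufaf), 4 of complex II, 10 of complex III with its carrier cytochrome c, 12 of complex IV and 17 of complex V. The rule itself uses names and no measured value, although it was set with earlier results of these data known.

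Total RNA of whole liver was hybridised to Affymetrix expression arrays, 1 array a sample, and the values are MAS 5.0 signals, which are linear fluorescence intensities scaled to a common mean. The knockout samples KO903, KO904 and KO905 came from mice without Atp7b, the copper-exporting ATPase of hepatocytes whose loss in humans causes Wilson disease, and the series title places them early in copper build-up. WT4, WT5 and WT6 came from wild-type mice. Sex, age, strain and diet are not in the labels, and nothing in them settles whether the samples are separate animals, so the p-values below measure the spread between these samples.

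Oxidative phosphorylation passes electrons from NADH, through complex I, or from succinate, through complex II, to coenzyme Q, complex III, cytochrome c and finally complex IV, which reduces oxygen. Complexes I, III and IV pump protons across the inner mitochondrial membrane, and complex V, the ATP synthase, lets them flow back to make ATP. Complex IV, cytochrome c oxidase, is the copper enzyme of the chain: its catalytic centres hold copper atoms, which a relay of chaperones in the intermembrane space inserts. The copper-binding subunits themselves are made in the mitochondrion from its own DNA, and none of the 13 symbols of genes encoded there was carried by a probe set with a single symbol in the table, so the values below concern the nuclear subunits.

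Array medians lay between 330.8 and 342.8. The targeted gene was read by 1 probe set, with signals of 240.5, 231.8 and 184.9 in KO903, KO904 and KO905, against 259, 299.7 and 241 in WT4, WT5 and WT6. The knockout values lay just below the wild-type ones, and the log2 difference of -0.27 ± 0.16 (SE) did not pass the test (limma, adjusted p = 0.407). Whether it lies inside the disrupted stretch of Atp7b was not examined, and if it lies outside, it says nothing about the genotype. The samples carried hepatocyte transcripts at similar levels: the summed signal of 6 of 8 listed markers, Alb, Apoa1 and Ttr among them, was 98259 to 112237 in knockout and 99675 to 121109 in wild-type liver. Sums of markers of other cells were 3068 to 4127 against 2004 to 3168 for Kupffer cells (5 of 7 listed genes measured), 2311 to 2658 against 1940 to 2247 for sinusoidal endothelium (5 of 6), 5569 to 6492 against 4854 to 6665 for stellate cells (6 of 7), 312 to 332 against 233 to 295 for lymphocytes (2 of 7) and 200.4 to 310.3 against 209 to 254 for neutrophils (Ngp alone, 1 of 5), in each case knockout against wild type. The endothelial and lymphocyte sums did not overlap between the groups. Of the 5 endothelial genes 4 were higher in knockout, but Clec4g alone had groups apart. Lyve1 lay the other way (log2 -0.56 ± 0.22, limma adjusted p = 0.202). All 5 Kupffer cell genes were higher in knockout, beside 56.4% of all tested genes, and none passed the test. Cd5l (log2 0.72 ± 0.24, limma adjusted p = 0.128) and Clec4f (log2 0.52 ± 0.19, adjusted p = 0.177) were under 0.05 before adjustment. The Kupffer cell sums overlapped. The erythroid marker Alas2 stood at 714 to 894 in knockout and 377 to 418 in wild-type liver, and the pancreatic marker Cela1 at 1138 to 1360 and 619 to 804, each the lone measured gene of its list (of 5 and 6). No listed marker of bile duct, striated muscle or brown fat was measured. In whole tissue, a change in the number of cells of a type and a change in RNA per cell cannot be told apart. The part of these markers in the results below was not tested. Signal ratios of the 3' over the 5' end overlapped between the groups, at 1.17 to 1.22 in knockout and 1.10 to 1.47 in wild-type liver for actin, and at 0.815 to 0.895 and 0.859 to 0.990 for Gapdh.

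In knockout liver the transcripts of the respiratory chain and ATP synthase kept close to their wild-type levels. Of the 81 genes, 80 had a probe set bright enough to test (mean signal of at least 100), 43 of them more than 1, and a gene was represented by its brightest tested probe set. Of these 80 genes, 1 passed the test as higher (Cox6b2) and 2 as lower (Ndufa6 and Ndufaf4), at an adjusted p under 0.05 in limma. Over all 6604 tested genes, 2.14% were called higher and 1.80% lower, so the members were called about as often as other genes. At an unadjusted p under 0.05, 9 members were higher and 4 lower, beside 10.1% and 7.84% of all tested genes (18.0% in either direction). These shares are the background for the counts by complex below. The groups did not overlap for 17 members on the higher side and 6 on the lower side, against 14.0% and 10.1% of all tested genes (24.1% in either direction).

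Most of the differences were small. The median log2 difference over the 80 genes was 0.07, with 53 above 0, beside 0.03 over all tested genes, of which 56.4% were above 0. The 95% confidence interval of the log2 difference lay wholly within 0.5 of 0 for 67 of the 80 members (83.8%), and for 50.6% of all tested genes. Members had a median standard error of 0.105, against 0.149 for all tested genes. For those 67 genes the interval bounds the difference on the brightest probe set only. Cox6b1, Cox6c and Ndufc2 are among them, and another probe set of each was called. The intervals there were 0.26 to 0.65, -0.97 to -0.33 and -0.88 to -0.43.

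**Figure D1:**
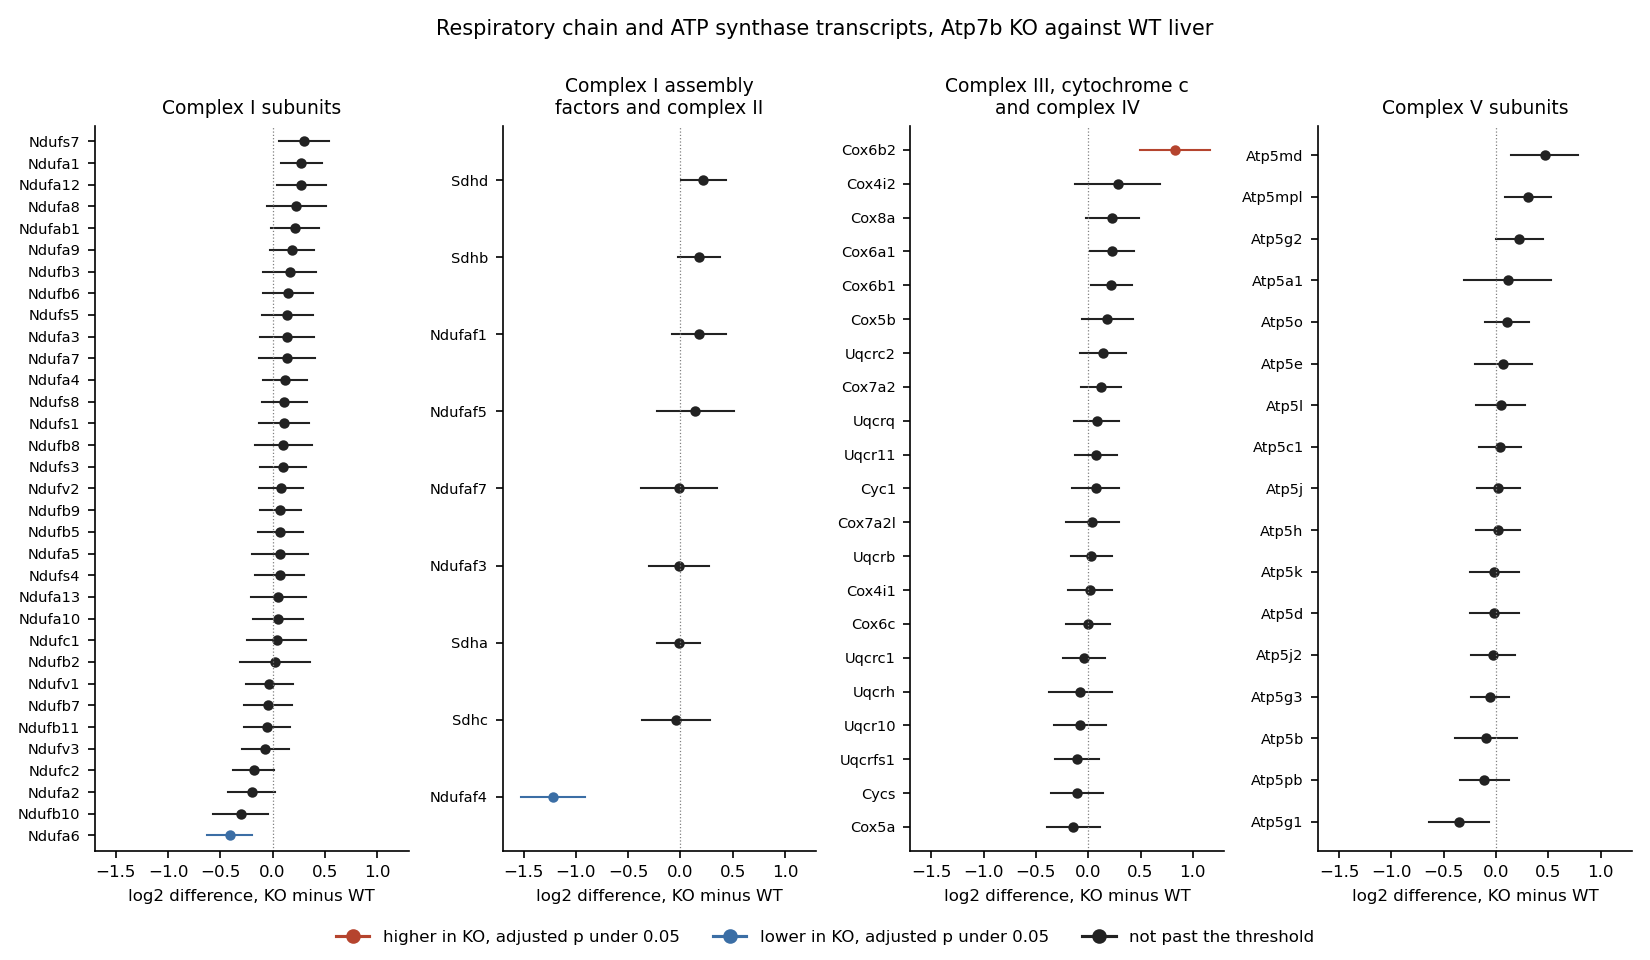
Log2 difference in signal, knockout minus wild type, for the 80 tested genes on the brightest probe set of each, in panels by complex and ordered by size. Points are limma estimates, bars are 95% confidence intervals (n = 3 a group) and colours mark adjusted p under 0.05. Most intervals cross 0, Cox6b2 lies to the right at 0.83, and Ndufa6 (-0.41) and Ndufaf4 (-1.22) lie to the left.

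Probe sets that did not represent their gene added 4 calls, so that 7 of 143 tested member probe sets passed, 2 higher and 5 lower, against 4.14% of all 10620 tested probe sets (2.05% higher and 2.09% lower). Groups did not overlap in 23.6% of all tested probe sets, 13.2% with knockout above and 10.4% with knockout below. The 4 were a probe set each of Cox6b1 (higher), Cox6c, Ndufc2 and Ndufaf4 (lower). The genes with a call therefore fall into complex IV (Cox6b1, Cox6b2 and Cox6c), complex I (Ndufa6 and Ndufc2) and its assembly (Ndufaf4), and no probe set of complexes II, III or V passed.

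The promoters of those genes are shown because they are the members whose transcripts differed. They are given from 250 bases before to 50 bases after the transcription start, in RefSeq's mouse assembly GRCm38.p6, read 5′ to 3′ on the strand of the gene. Nuclear genes of the respiratory chain are known for sites of NRF1, a transcription factor that binds a palindrome-like GC-rich sequence. Capitals mark each match to its core motif GCATGCGC on either strand. The promoters lie at chr4:24897833-24898132 (plus strand) for Ndufaf4, chr15:82354242-82354541 (minus) for Ndufa6, chr7:97399753-97400052 (plus) for Ndufc2, chr7:4753045-4753344 (minus) for Cox6b2 and chr7:30626065-30626364 (minus) for Cox6b1. Cox6c is named only.
Ndufaf4: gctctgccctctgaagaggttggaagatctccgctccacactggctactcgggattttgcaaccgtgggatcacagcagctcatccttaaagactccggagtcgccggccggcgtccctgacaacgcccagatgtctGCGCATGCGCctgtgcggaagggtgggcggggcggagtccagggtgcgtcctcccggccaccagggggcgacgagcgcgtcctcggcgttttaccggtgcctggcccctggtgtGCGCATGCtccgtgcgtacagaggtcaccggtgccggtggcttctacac
Ndufa6: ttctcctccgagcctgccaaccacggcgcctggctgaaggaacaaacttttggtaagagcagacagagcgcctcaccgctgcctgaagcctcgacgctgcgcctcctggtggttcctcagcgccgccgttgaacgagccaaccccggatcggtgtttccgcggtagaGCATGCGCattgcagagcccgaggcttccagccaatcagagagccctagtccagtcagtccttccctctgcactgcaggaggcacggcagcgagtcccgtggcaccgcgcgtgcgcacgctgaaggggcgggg
Ndufc2: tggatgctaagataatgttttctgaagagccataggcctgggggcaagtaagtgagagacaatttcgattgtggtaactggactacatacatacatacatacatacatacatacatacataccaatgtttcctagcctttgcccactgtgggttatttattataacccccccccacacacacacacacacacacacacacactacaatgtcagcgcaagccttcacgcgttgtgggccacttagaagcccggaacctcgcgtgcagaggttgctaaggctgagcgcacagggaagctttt
Cox6b2: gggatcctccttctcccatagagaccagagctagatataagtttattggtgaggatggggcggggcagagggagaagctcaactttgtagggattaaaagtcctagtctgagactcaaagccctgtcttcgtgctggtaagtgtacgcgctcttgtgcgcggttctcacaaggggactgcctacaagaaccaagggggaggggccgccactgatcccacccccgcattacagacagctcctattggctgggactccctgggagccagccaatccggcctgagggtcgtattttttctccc
Cox6b1: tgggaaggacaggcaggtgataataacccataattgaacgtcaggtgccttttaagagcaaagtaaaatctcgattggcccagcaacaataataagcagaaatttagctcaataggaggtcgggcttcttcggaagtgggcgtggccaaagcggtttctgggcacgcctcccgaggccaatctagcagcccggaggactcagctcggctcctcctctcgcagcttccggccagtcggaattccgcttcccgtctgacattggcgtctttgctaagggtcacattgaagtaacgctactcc

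The Ndufaf4 promoter held 3 matches, an overlapping pair in opposite directions within GCGCATGCGC and another nearer the start, and the Ndufa6 promoter held 1. The promoters of Ndufc2, Cox6b2 and Cox6b1 held none. Of 73 promoters of 68 members in the RefSeq table, 12 (16.4%) held the NRF1 motif, beside 2.71% of all 32851 promoters of this length and 5.30% of the 7041 promoters of tested genes. The core motif of GABPA (NRF2), CCGGAAGT, was in 6.85% of member promoters, 3.89% of all and 8.27% of those of tested genes. The core motif of the oestrogen-related receptors, AAGGTCA, was in 9.59%, 4.72% and 3.45% of the same 3 sets. By complex, the NRF1 motif was in 2 of 32 promoters of complex I, 2 of 5 of its assembly factors, 1 of 3 of complex II, 3 of 6 of complex III with cytochrome c, 1 of 9 of complex IV and 3 of 18 of complex V. Both strands were searched, and members' promoters had a median GC content of 59%, against 52.7% over all promoters and 60.7% over those of tested genes. A match describes letters in a window and is not a measured binding site.

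Complex IV was the complex with the highest median, a log2 difference of 0.18 over 11 tested genes with 9 above 0, and 1 of the 11 was called (3 higher and 0 lower at an unadjusted p under 0.05). The knockout values lay wholly above the wild-type ones for 4 of the 11 genes and wholly below for 0. No test of the complex as a whole was made, and without KO904 the median was 0.08. The call was in Cox6b2, which was read by 1 probe set, so there was no second reading of that gene. A probe set of its paralogue Cox6b1, a separate gene, was also called higher, though not the brighter one. These genes encode alternative forms of subunit VIb, which faces the intermembrane space and bridges the monomers of the enzyme. Cox6b1 is the form of most tissues, while Cox6b2 is known chiefly from testis.

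Cox6b2 had signals of 638.6, 714.2 and 931.9 in KO903, KO904 and KO905, against 438.2, 416.5 and 394 in WT4, WT5 and WT6. Every knockout sample was above every wild-type sample, and KO905 was the highest. The mean signal was 762 ± 152 in knockout liver and 416 ± 22.1 in wild-type liver (SD, n = 3 each), and Cox6b2 rose 1.78-fold (log2 0.83 ± 0.15 SE, 95% interval 0.50 to 1.16, limma adjusted p = 0.0125). The call held with each sample left out in turn (adjusted p at most 0.0462).

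Cox6b1 was read by 2 probe sets. The brighter gave 8358.2, 8842.6 and 7949.6 in the knockout samples, against 6858.6, 7445.7 and 7262.2 in the wild-type samples (log2 0.22 ± 0.09, limma adjusted p = 0.222). The other gave 7107.4, 7654.7 and 7905.1 in knockout, against 5301.2, 5628.2 and 5590.5 in wild type, and on it Cox6b1 rose 1.37-fold (log2 0.45 ± 0.09, limma adjusted p = 0.0193). On both, all knockout values exceeded all wild-type values, so the probe sets shared their direction and differed in size. The call on the dimmer probe set ended without KO904, KO905, WT4 or WT6 (adjusted p up to 0.0878) and without an intensity trend in the variance (adjusted p = 0.0733).

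Cox6c, a small membrane-spanning subunit, gave unlike readings on its 2 probe sets. Its bright probe set had 8933.9, 9585 and 8561.5 in knockout, against 8367.5, 9742.2 and 9077.2 in wild type, with interleaved values and a log2 difference of -0.00 ± 0.09 (95% interval -0.21 to 0.20, limma adjusted p = 0.99). Its dim probe set had 1026.9, 1369.7 and 1273.8 in knockout, against 2093.3, 1594.3 and 2104.3 in wild type, and passed as lower (log2 -0.65 ± 0.15, limma adjusted p = 0.0339). The groups did not overlap there, with WT5 nearest to the knockout samples. Leaving out any sample but WT5 ended that call (KO903, KO904, KO905, WT4 or WT6, adjusted p up to 0.124), as did the variance without a trend (0.0695). Which transcripts each probe set reads was not examined.

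**Figure D2:**
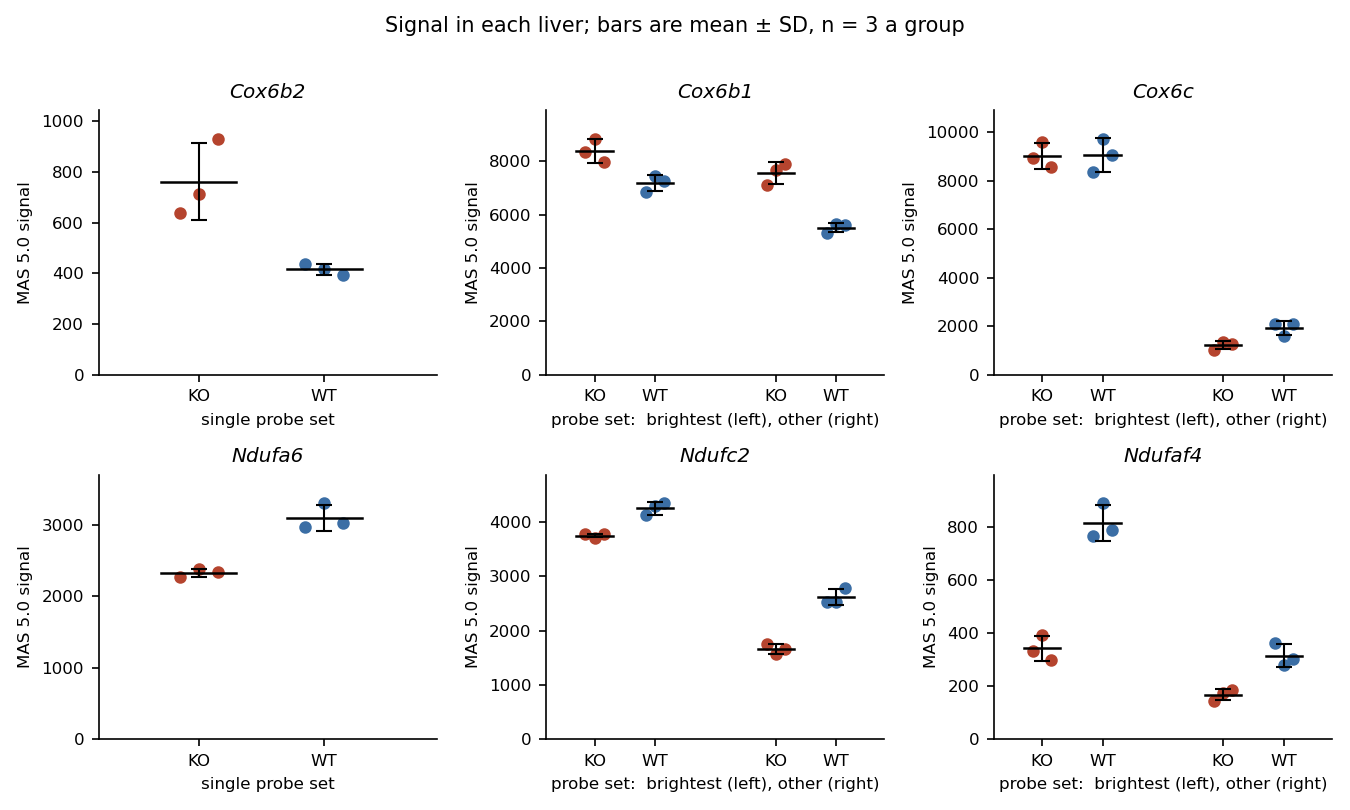
MAS 5.0 signal in each sample (points, knockout red and left, wild type blue and right) for the 6 genes with a called probe set, with the mean and SD (bars, n = 3 a group) on linear axes from 0. Where 2 probe sets were tested, the brighter pair is on the left of the panel. Cox6b2 and Cox6b1 were higher in all 3 knockout samples, Ndufa6, Ndufc2 and Ndufaf4 lower in all 3, and Cox6c was lower on its dim probe set and interleaved on its bright one.

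Of the other complex IV genes, Cox8a, the smallest subunit, came closest to the threshold. Its brighter probe set had 5727.3, 6105.2 and 5622.4 in knockout, against 4365.4, 5794.4 and 4810.2 in wild type (log2 0.23 ± 0.11, limma adjusted p = 0.324), and WT5 lay among the knockout values. Its other probe set had 5679.5, 5752.3 and 5113.6 in knockout, against 4164.5, 4341.4 and 4331.3 in wild type, with no overlap (log2 0.36 ± 0.09, limma adjusted p = 0.0556). Cox6a1, the liver form of subunit VIa, had 11302.4, 10984.4 and 10146.3 in knockout, against 9376.4, 8444.8 and 9925.9 in wild type (log2 0.23 ± 0.10, limma adjusted p = 0.237; other probe set 0.08). These values did not overlap on the brighter probe set, and the difference did not pass the test.

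None of the remaining isoform genes passed the test. Cox4i1, the usual form of subunit IV, had a log2 difference of 0.02 ± 0.09 (95% interval -0.19 to 0.23). Cox4i2, its oxygen-regulated form known from lung, was dim, with 139.9, 172 and 140 in knockout, against 114.8, 100.2 and 151.1 in wild type (log2 0.28 ± 0.19, limma adjusted p = 0.474). The groups overlapped. Cox7a2, the liver form of subunit VIIa, had log2 differences of 0.12 and 0.18 on its 2 probe sets, with no overlap on either and neither past the threshold (limma adjusted p = 0.506 and 0.358). Cox7a1, the heart and muscle form of that subunit, was under the minimum signal, with 54.7, 62 and 46 in knockout, against 71.2, 56.9 and 76.2 in wild type, and was not tested. Cox7a2l, a relative of these that joins complexes III and IV into supercomplexes, differed by 0.04 ± 0.12. Cox5a, on the matrix side, had 5759.9, 7511.8 and 7243.9 in knockout, against 7220.2, 8147.9 and 7174.4 in wild type (log2 -0.14 ± 0.12, limma adjusted p = 0.579). Its other probe sets gave -0.15 ± 0.11 and -0.41 ± 0.22 without passing. Cox5b, the zinc-binding subunit, differed by 0.18 ± 0.11 (limma adjusted p = 0.438), and by 0.15, 0.14 and 0.03 on its other probe sets. With single samples left out, the difference ranged from 0.14 to 0.34 for Cox8a, from 0.17 to 0.43 for Cox4i2 and from -0.22 (without KO904) to -0.024 (without KO903) for Cox5a.

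Genes that deliver copper to complex IV and build it were listed separately, and 16 of 24 listed were tested. Limma called 0 of them in either direction (1 higher and 0 lower at an unadjusted p under 0.05), and the median log2 difference was 0.10 with 10 above 0. The 1 was Sco2, a membrane-bound chaperone that passes copper towards the binuclear copper site of the enzyme. Sco2 had 1462.8, 1329.2 and 1289.4 in knockout, against 666.6, 1138.1 and 863.1 in wild type. All knockout values exceeded all wild-type values, among which WT5 was the highest. The means were 1360 ± 90.8 and 889 ± 237 (SD, n = 3 each; log2 0.64 ± 0.17, limma adjusted p = 0.0643), and Sco2 passed without WT5 (log2 0.83, adjusted p = 0.0104) and when arrays were weighted by quality (log2 0.73, adjusted p = 0.0288).

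The other genes of the list also did not pass the test. Cox17, which hands copper to Sco1 and Cox11, had 1043.1, 802.7 and 1028.8 in knockout, against 945.7, 661.4 and 1048.5 in wild type (log2 0.13 ± 0.18, limma adjusted p = 0.765). The values interleaved, the 95% interval was -0.26 to 0.51, and the difference turned to -0.06 without WT5. Cox19, a related small protein of the intermembrane space, differed by 0.07 ± 0.17 (95% interval -0.30 to 0.45). Surf1, an assembly factor for the haem-bearing subunit, differed by -0.03 ± 0.12. Both differences changed sign with some single samples left out. Sco1, Cox10 and Cox11 had no probe set with a single symbol among those used here. The lowest of the list was Cox20, a chaperone of a copper-binding subunit (log2 -0.25 ± 0.13, limma adjusted p = 0.331, no overlap).

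Complex I had 33 tested genes with a median log2 difference of 0.08, 25 above 0. Of these 1 was called, lower (3 higher and 2 lower at an unadjusted p under 0.05), and groups did not overlap in 6 on the higher and 4 on the lower side. The 6 genes of the catalytic core, which as a whole holds the flavin and the iron-sulphur clusters, had a median of 0.10 with 5 above 0. The 27 supernumerary subunits, which surround the core, had a median of 0.07 with 20 above 0. Ndufa4 was counted here by its symbol although it is known as a component of complex IV. Its log2 difference was 0.12 ± 0.10, and with Ndufa4 included the median of complex IV was 0.15.

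Ndufa6 encodes a supernumerary subunit of the LYR family that holds the mitochondrial acyl carrier protein against the matrix arm. It had 2265.5, 2377.7 and 2333.7 in knockout, against 2963, 3301.5 and 3023.5 in wild type. The knockout samples lay close together and all below the lowest wild-type sample. The means were 2326 ± 56.5 and 3096 ± 181 (SD, n = 3 each), and Ndufa6 fell to 0.753 of its wild-type level (log2 -0.41 ± 0.10, 95% interval -0.62 to -0.19, limma adjusted p = 0.0430). The call was at the threshold: it ended with any of the 6 samples left out (adjusted p from 0.0797 to 0.138, log2 difference from -0.44 to -0.36) and without an intensity trend (0.0979). Ndufab1, the acyl carrier protein itself, had 2362.9, 2408.7 and 2550.8 in knockout, against 2083.9, 2264 and 1968.5 in wild type (log2 0.21 ± 0.10, limma adjusted p = 0.311), on the other side of 0.

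Ndufc2, a supernumerary subunit of the membrane arm, was lower on both of its probe sets but called on 1. The brighter had 3774.2, 3710.7 and 3771.7 in knockout, against 4123.5, 4296.2 and 4352.3 in wild type (log2 -0.18 ± 0.09, limma adjusted p = 0.325). The dimmer had 1746.1, 1564.8 and 1661.2 in knockout, against 2529, 2536.2 and 2787.7 in wild type, and on it Ndufc2 fell to 0.635 of its wild-type level (log2 -0.65 ± 0.10, limma adjusted p = 0.00625). Neither probe set had any overlap between groups. The call on the dimmer held with each sample left out (adjusted p at most 0.0390), and the mean over both gave -0.42 (adjusted p = 0.0244). By probe set name the brighter is of a kind that can bind transcripts of several genes and the dimmer of a kind designed to bind 1.

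At the ends of the complex I range, the other genes did not pass. Ndufs7, a core subunit with the last iron-sulphur cluster before coenzyme Q, had 2736.6, 2367.4 and 2756.5 in knockout, against 2118.8, 2251.8 and 1978 in wild type (log2 0.30 ± 0.11, limma adjusted p = 0.162). Ndufa1, a small membrane subunit, had 7036.3, 7855.2 and 7598.8 in knockout, against 5943.2, 6398.1 and 6223.1 in wild type (log2 0.28 ± 0.09, limma adjusted p = 0.127). Ndufb10, of the distal membrane arm, had 1373.8, 1162.7 and 1242.2 in knockout, against 1542.4, 1718.4 and 1427.9 in wild type (log2 -0.31 ± 0.12, limma adjusted p = 0.197). In all these genes the groups were apart, Ndufs7 and Ndufa1 with knockout above and Ndufb10 with knockout below. Ndufs4, an accessory subunit of the matrix arm, had 3 tested probe sets that spread from -0.32 to 0.32: its bright probe set gave 0.07 ± 0.11, while the others were dim, at 102.4 to 232 over all samples, and none passed.

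The assembly factors of complex I held the largest log2 difference of the 80 genes. Ndufaf4 is not a subunit of the finished enzyme but helps to assemble it. Its brighter probe set had 333, 394.2 and 299 in knockout, against 764.1, 890.3 and 789.2 in wild type. The highest knockout sample, KO904, was well under the lowest wild-type sample, WT4. The means were 342 ± 48.2 and 815 ± 66.8 (SD, n = 3 each), and Ndufaf4 fell to 0.429 of its wild-type level (log2 -1.22 ± 0.14, 95% interval -1.52 to -0.92, limma adjusted p = 0.000822). That call held with each sample left out (limma adjusted p at most 0.00572).

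The other Ndufaf4 probe set had 144.6, 173.6 and 183.3 in knockout, against 361.8, 279.7 and 303.3 in wild type (log2 -0.85 ± 0.16, limma adjusted p = 0.0138), again without overlap, and its call ended without KO903 or WT4 (adjusted p up to 0.0597). Both probe sets thus gave the same direction. The other 4 Ndufaf genes ranged from -0.01 to 0.18 and did not pass, and the 5 had a median of -0.01. In a wider list of assembly factors of complexes I, II, III and V, 16 were tested, Ndufaf4 was the lone call (3.94% of all tested genes were called in either direction), and the median was 0.14.

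Complex II, succinate dehydrogenase, which also works in the citric acid cycle, had 4 tested genes and 0 calls in limma (1 higher and 0 lower at an unadjusted p under 0.05). Sdhb, the iron-sulphur subunit, had 6419.7, 6600.9 and 6116.2 in knockout, against 5304.9, 5903.6 and 5683.1 in wild type (log2 0.18 ± 0.09, limma adjusted p = 0.335). Sdhd, the small membrane anchor, had 4628.1, 5209.6 and 5101.9 in knockout, against 4278.2, 4467.8 and 4066.7 in wild type (log2 0.22 ± 0.10, limma adjusted p = 0.261). For both, all knockout values exceeded all wild-type values, and neither difference passed the test.

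Sdha, the flavoprotein that oxidises succinate, had 4876.7, 4838.3 and 4927.4 in knockout, against 4613.2, 5250.4 and 4963 in wild type (log2 -0.02 ± 0.09, 95% interval -0.22 to 0.19). Sdhc, the large membrane anchor, had 2802.8, 3483.7 and 2794 in knockout, against 2890.9, 3854.6 and 2671.6 in wild type (log2 -0.04 ± 0.15). Their values interleaved on these brighter probe sets, and the sign of each turned with some single samples left out. The dimmer probe sets gave -0.20 ± 0.12 for Sdha, -0.21 ± 0.12 for Sdhc and 0.05 ± 0.15 for Sdhd, without passing. The intervals of all 7 tested probe sets of the 4 genes lay within 0.5 of 0.

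In complex III and cytochrome c no difference passed the test. Of 10 genes 0 were called by limma, 0 reached an unadjusted p under 0.05, none had groups apart, and all 10 intervals lay within 0.5 of 0. The median was -0.01, with 5 genes above 0. Cyc1, the haem-bearing cytochrome c1, had 4648.9, 4615.2 and 5230.1 in knockout, against 4338, 4458.7 and 5009.6 in wild type (log2 0.07 ± 0.10). Cycs, the cytochrome c that carries electrons to complex IV, had 4497.6, 4224 and 5086 in knockout, against 4484.5, 5571.5 and 4855.6 in wild type (log2 -0.11 ± 0.11), and -0.13 and 0.01 on its other probe sets.

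The ends of the range in complex III were Uqcrc2, a core protein on the matrix side (log2 0.14 ± 0.10, limma adjusted p = 0.525), and Uqcrfs1, the Rieske iron-sulphur protein (log2 -0.11 ± 0.10, adjusted p = 0.615). Uqcrq, a small membrane subunit, had 0.08 ± 0.10 (adjusted p = 0.738). Among single probe sets the farthest from 0 was the dimmer one of Uqcrb, with 1738.4, 1437.5 and 1664.6 in knockout, against 2190.1, 1934.6 and 1823.6 in wild type (log2 -0.30 ± 0.12, limma adjusted p = 0.219). The bright probe set of that gene gave 0.03 ± 0.09. With single samples left out, the difference ranged from 0.07 to 0.21 for Uqcrc2, from 0.034 to 0.14 for Uqcrq, from 0.01 to 0.13 for Cyc1 and from -0.18 to -0.024 for Cycs.

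Complex V had 17 tested genes and 0 calls in limma (2 higher and 1 lower at an unadjusted p under 0.05), with 4 genes apart on the higher side and 1 on the lower. Its median of 0.02 did not keep its sign: it was -0.02 without WT4 and -0.03 with all probe sets of a gene averaged. By part of the enzyme, the median was 0.04 in the catalytic F1 head and central stalk (5 genes), -0.06 in the c ring (3), 0.02 in the peripheral stalk (4) and 0.04 in the other membrane subunits (5).

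The c ring genes encode 1 mature protein behind different import sequences, and their readings differed. Atp5g1 had 3454.2, 3539 and 3581.1 in knockout, against 4105.8, 5598.2 and 3999.7 in wild type (log2 -0.36 ± 0.13, limma adjusted p = 0.172), and without WT5, the high value, the difference was -0.20. Atp5g2 had 3046.2, 3625.7 and 3350.1 in knockout, against 2856.1, 2799.5 and 2899 in wild type (log2 0.22 ± 0.10, limma adjusted p = 0.280). Atp5g3 had 11168, 10637.4 and 10529.9 in knockout, against 11002.5, 11579.9 and 11072.3 in wild type (log2 -0.06 ± 0.08, limma adjusted p = 0.776). The groups were apart in Atp5g1 with knockout below and in Atp5g2 with knockout above, and overlapped in Atp5g3.

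The genes with the highest differences in complex V encode small proteins of the membrane part. Atp5md, which supports dimers of the enzyme, had 1656.9, 1515.9 and 2274.4 in knockout, against 1294.8, 1325.3 and 1254.7 in wild type (log2 0.46 ± 0.15, limma adjusted p = 0.111). KO905 was the high value, and without it the difference was 0.29. Atp5mpl had 3315.2, 3687 and 3411 in knockout, against 2864.6, 2654 and 2898.9 in wild type (log2 0.31 ± 0.10, limma adjusted p = 0.121). Neither passed, although the groups were apart in both. Atp5pb, of the peripheral stalk, had -0.11 ± 0.11 (limma adjusted p = 0.652), and the catalytic beta subunit Atp5b -0.10 ± 0.13 (adjusted p = 0.768).

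Probe sets of the same gene were a check within each array. Among the 43 members with several tested probe sets, the log2 differences of a gene spanned less than 0.25 in 31, with a median span of 0.173, and more than 0.5 in 2, Cox6c (0.65) and Ndufs4 (0.64). In 20 of the 43 the probe sets lay on both sides of 0. Of the 7 called probe sets, 6 were of kinds named for a single gene or transcript (2 higher and 4 lower of 61) and 1 of a kind shared by transcripts of a gene (lower, of 40), while 0 of 16 and 0 of 26 passed among kinds that can bind several genes. Over all tested probe sets 4.14% passed, and the share for each kind was not counted. No difference between kinds is drawn from these counts.

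**Figure D3:**
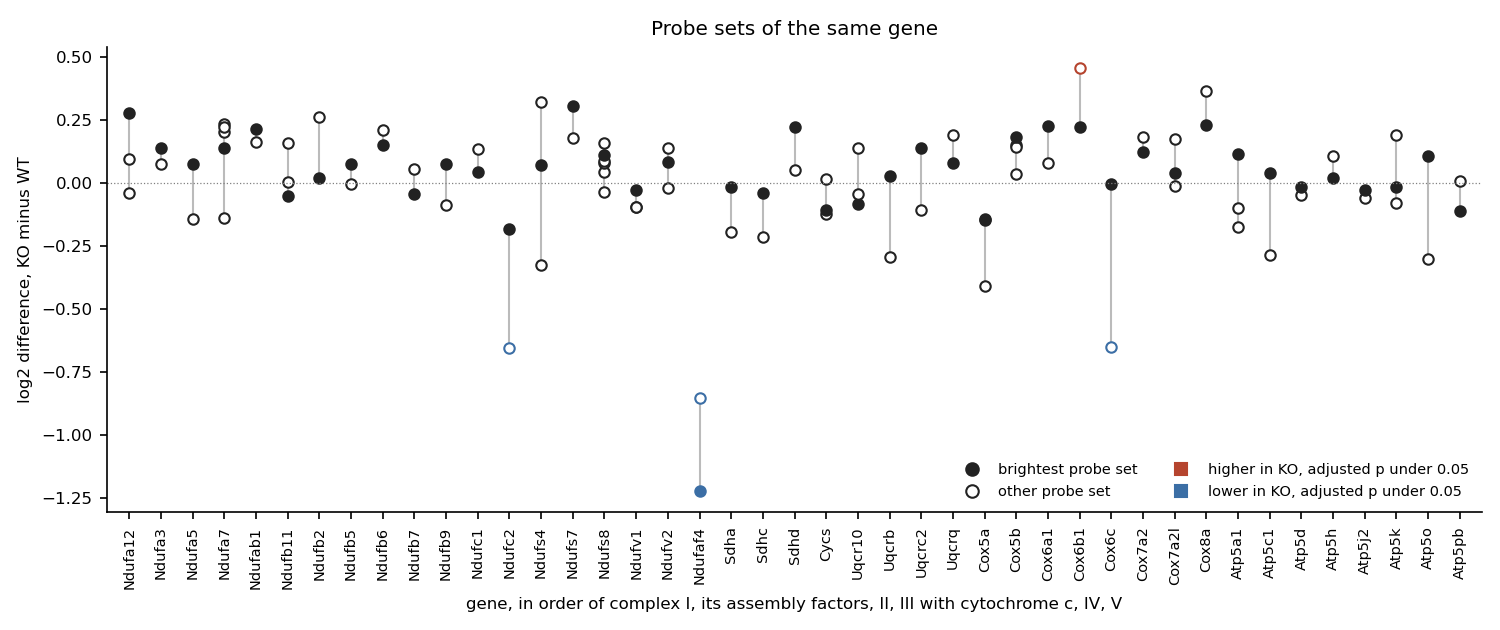
Log2 difference, knockout minus wild type, for each tested probe set of the 43 genes with several, in order of complex. Filled points are the brightest probe set of a gene, open points the others, and grey lines span a gene. Most genes span less than 0.25, Cox6c and Ndufs4 span 0.65 and 0.64, and the called open points are Ndufc2, Ndufaf4, Cox6b1 and Cox6c.

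The complexes were also followed sample by sample. Each gene was set to its mean over the 6 arrays and the median deviation of a complex was taken in each sample. For complex IV these medians were 0.05, 0.14 and 0.02 in KO903, KO904 and KO905, against -0.14, -0.01 and -0.01 in WT4, WT5 and WT6 on the log2 scale. All knockout samples were above all wild-type samples there, with KO904 the highest and WT4 the lowest. For complex I they were 0.03, 0.01 and 0.08 in knockout, against -0.11, 0.03 and -0.02 in wild type, and for complex V -0.01, -0.00 and 0.01 against -0.09, 0.08 and -0.08. In both, WT5 lay among or above the knockout samples and WT4 was the lowest. Over all tested genes the medians were 0.03, 0.04 and -0.00 in knockout, against -0.02, -0.00 and -0.00 in wild type.

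**Figure D4:**
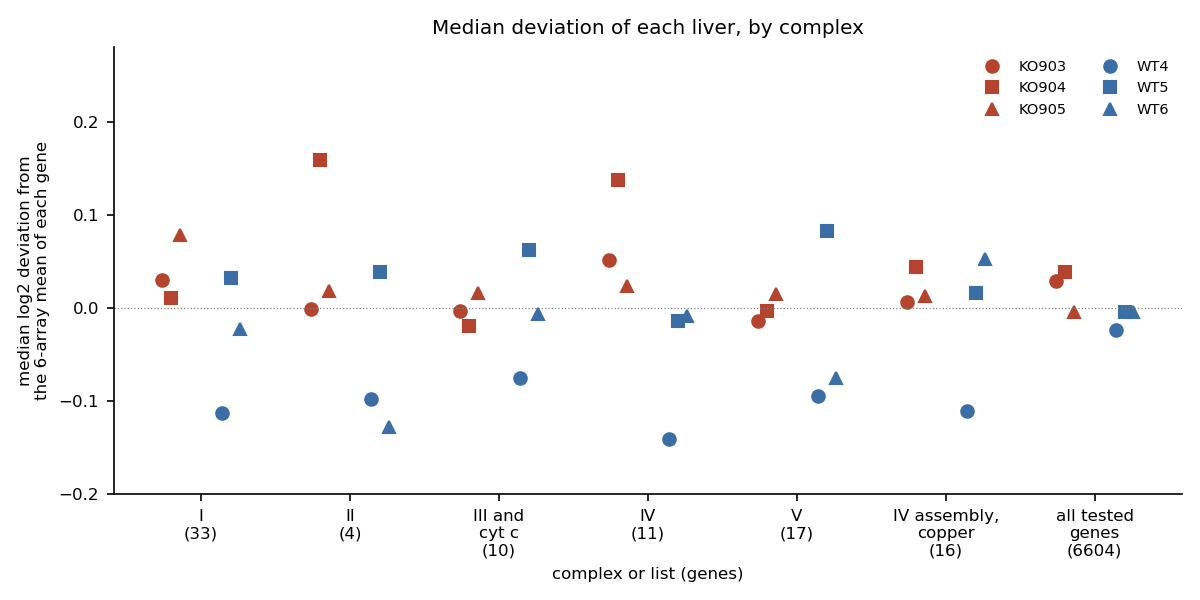
Median log2 deviation of each sample from the 6-array mean of each gene, by complex, for the copper delivery and assembly list and for all tested genes (gene numbers in parentheses). Red marks are knockout and blue marks wild type, with a shape for each sample. In complex IV the knockout medians (0.02 to 0.14) lie above the wild-type ones (-0.14 to -0.01). In complexes I, II, III and V, the copper delivery and assembly list and all tested genes the groups overlap.

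Other mitochondrial lists were examined beside the members. Limma called 0 of 17 genes of the citric acid cycle (0 higher and 1 lower at an unadjusted p under 0.05; median -0.01) and 0 of 74 genes of mitochondrial ribosomal proteins (7 higher and 3 lower; median 0.08). It also called 0 of 8 genes of nucleotide exchange, uncoupling and other electron entry (0 at an unadjusted p under 0.05; median 0.07) and 0 of 8 genes of coenzyme Q synthesis (0 at an unadjusted p under 0.05; median 0.21). The members' median of 0.07 lay between these medians, and no difference between lists was tested.

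The regulators of mitochondrial biogenesis held 1 call among 17 tested genes (3.94% of all tested genes were called), Ppara, the fatty acid sensing nuclear receptor of liver. It had 1232.8, 1390.2 and 1066.6 in knockout, against 2379.9, 2373.7 and 3250.4 in wild type, all knockout samples far below, and fell by 1.10 on the log2 scale (± 0.15 SE, limma adjusted p = 0.00258). The list had a median of -0.08 with 0 higher and 4 lower at an unadjusted p under 0.05, beside 10.1% and 7.84% of all tested genes. Ppargc1a, the coactivator PGC-1alpha, had 172.5, 256.7 and 329.7 in knockout, against 305.6, 415.4 and 401.1 in wild type on its brightest probe set (log2 -0.57 ± 0.21, limma adjusted p = 0.186), with KO905 above WT4. Its other tested probe sets gave -0.61, -0.14 and -0.50 without passing, and the groups were apart on the last of these. Yy1, a zinc finger factor (log2 -0.50 ± 0.15, adjusted p = 0.104, with 0.09 and 0.14 on its other tested probe sets), and Tfb2m, a mitochondrial transcription factor (log2 -0.57 ± 0.22, adjusted p = 0.208), did not pass. Other factors of the list lay on either side of 0 without passing: Nrf1 at 0.04 ± 0.16, Tfam at -0.01 ± 0.14, Gabpa at -0.24 ± 0.15, the orphan receptor Esrra at -0.36 ± 0.19 and the mitochondrial RNA polymerase Polrmt at 0.46 ± 0.25, whose other probe set gave -0.21.

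**Figure D5:**
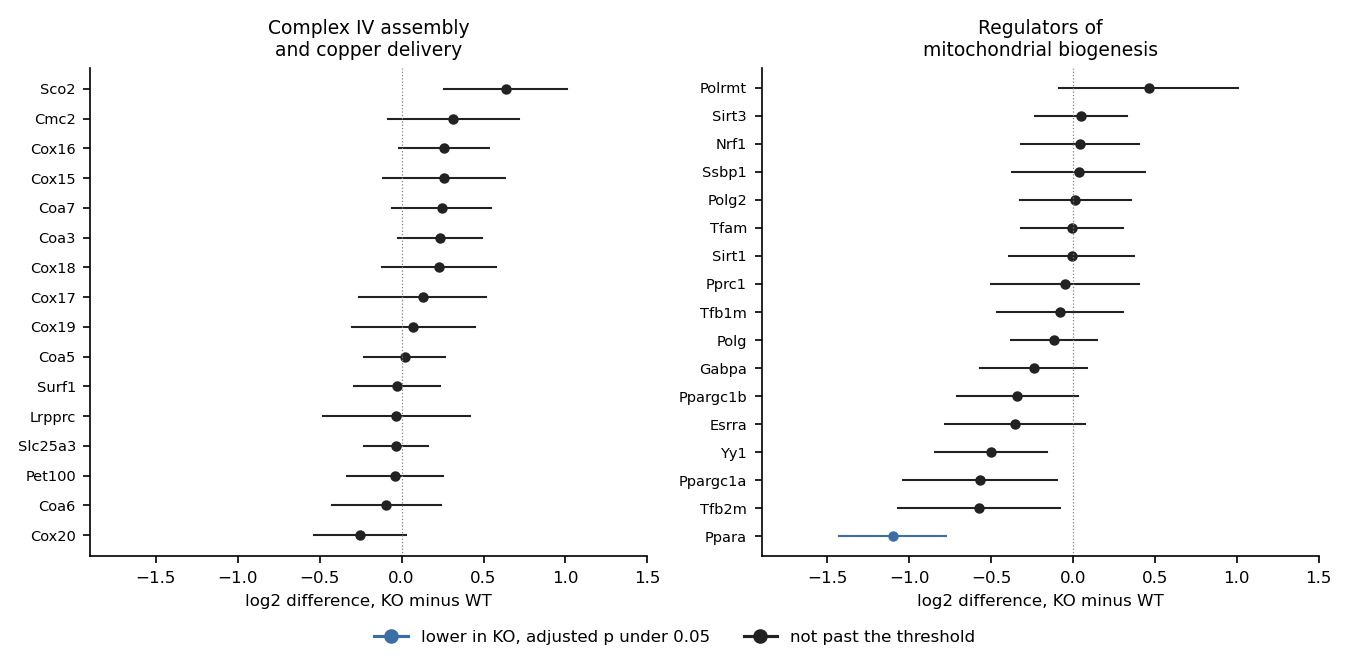
Log2 difference, knockout minus wild type, for 16 tested genes of complex IV assembly and copper delivery (left) and 17 regulators of mitochondrial biogenesis (right). Points are limma estimates on the brightest probe set, bars are 95% confidence intervals (n = 3 a group), and blue marks an adjusted p under 0.05. Sco2 is the highest on the left at 0.64 without passing, and Ppara the lowest on the right at -1.10.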

How the data were processed

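Linear intensity values were deposited, 1 per probe set and array. Per the labels, the authors made them with MAS 5.0, which the submitters' processing notes also name, and scaled each array to a target of 350. MAS 5.0 subtracts mismatch signals, so low signals are noisy. The sources used here do not say how the 11811 probe sets of the table were selected. Arrays have no sequencing depth, and their number limits the precision.

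Gene symbols came from the platform annotation (10776 with 1 symbol, 418 with several and 584 with none), and 6 probe sets with several symbols, a member's among them, were left out of the members. All 145 member probe sets matched RefSeq (GRCm38.p6) by Entrez identifier, and 0 symbols differed. After 33 controls and 1158 probe sets with a mean signal under 100 were left out, 10620 remained. Knockout minus wild type was fitted on log2(signal + 16), which understates changes of low signals, with limma 3.58.1 in R 4.3.3 (lmFit, eBayes with an intensity trend, two-sided, Benjamini-Hochberg over all tested probe sets, threshold 0.05). Errors after ± are limma's standard errors for log2 differences and SDs for signals. An exact permutation test of 3 against 3 samples cannot go below 0.1. The fit was tested on simulated data in 20 runs. It called 34.4% of probe sets given a log2 change of 0.5 and 97.5% of those given a change of 1. False calls made up 7.05% of calls. In that setting most changes of 0.5 were thus missed. Tables and figures were made with Python 3.11.15, pandas 2.3.3 and matplotlib 3.10.9.

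The members and lists were chosen with earlier results of these data known. Named were called members, the extremes of complexes I, III, IV and V, complex II, Cyc1, Cycs, the Cox isoform families, genes with discordant probe sets, called genes of the lists and the copper carriers. Other genes named were chosen after their values were seen. Alternatives were quantile normalization, centring on array medians, a pseudocount of 1 or 64, no signal filter or a minimum of 200, eBayes without a trend or robust, array weights, a threshold of 0.10, averaging a gene's probe sets and leaving out each sample. Promoter motifs came from RefSeq promoters of 300 bases.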

Additional observations from a re-analysis of the deposited data

How the results depend on the processing

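No paired analysis was possible because the sample numbers of the knockout (KO903 to KO905) and of the wild type (WT4 to WT6) do not match. Cox6b2 and the brighter Ndufaf4 probe set passed under every alternative run. The count of tested probe sets called was 440, 175 (without KO904) to 469 (without WT5) with single samples left out, and 786 at a threshold of 0.10. Member probe sets called numbered 7, 4 without an intensity trend and 3 (without WT4) to 6 (without WT5) with single samples left out. Member genes called numbered 3, 2 with any sample left out and 5 with all probe sets of a gene averaged. In complex I the count was 1, 0 without a trend and with any sample left out, and 2 with averaged probe sets; in complex IV it was 1, and 2 with averaged probe sets. The copper delivery list had 0 calls, and 1 (Sco2) at a threshold of 0.10, with array weights or without WT5. The median of complex IV ranged from 0.085 (without KO904) to 0.23 (without KO905), and that of all members from 0.034 to 0.092. Signs turned in differences near 0. With single samples left out, Cox17 ranged from -0.064 to 0.26, Cox19 from -0.090 to 0.20, Cox4i1 from -0.032 to 0.057, Cox6c from -0.060 to 0.049, Cox7a2l from -0.032 to 0.090, Sdha from -0.065 to 0.028, Sdhc from -0.15 to 0.11 and Surf1 from -0.11 to 0.039. Cox4i1 also turned after centring (-0.013), Cox6c with array weights (0.019) and quantile normalization (0.034), and Sdha with the same (0.0077 and 0.032). The causes were not tested. Centring gave complex medians of 0.054 (I), 0.052 (II), -0.036 (III), 0.15 (IV) and -0.0067 (V).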
